A study of Mus musculus with 9 samples.

Results

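ETn and MusD elements were followed in cultured mouse embryonic stem cells (ESCs), which derive from the blastocyst and can form every tissue of the body. The members were chosen by name alone, as every annotated repeat copy whose name starts with ETn, MMETn, RLTRETN or ERVB7. This gave 1873 of the 623916 single repeat copies in the count table, under 10 of its 1034 repeat names. RNA was sequenced in 9 libraries of C57BL/6 cells, 3 each of wild-type (WT) ESCs, generation 1 (G1) Terc-/- ESCs and generation 4 (G4) Terc-/- ESCs. The product of Terc is the RNA that telomerase copies into telomere repeats, and in mice bred without it telomeres grow shorter with each generation, so the design sets cells with longer against cells with shorter telomeres. Per the labels, feeder cells were taken away before RNA was extracted. Per the study's methods, G1 ESCs came from blastocysts of Terc+/- intercrosses, and G4 ESCs from blastocysts of G3 Terc-/- mice. Genotype and generation therefore cannot be told apart from cell line or derivation in any comparison below. Both Terc-/- groups lacked telomerase RNA throughout, and no treatment was named for any group. The labels name no separate lines, cultures or embryos for the 3 libraries of a group, so the p-values measure the spread between these libraries, which may be technical.

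ETn (early transposon) and MusD elements are related long terminal repeat (LTR) retrotransposons of the mouse. An intact element has an internal part between a pair of LTRs, and the LTR holds the promoter and the signals that end the transcript. MusD elements carry the genes for their own mobilisation, whereas ETn elements have lost them and move with proteins supplied by MusD. Both are transcribed in the early mouse embryo and in ESCs, where histone H3K9 methylation and DNA methylation hold many copies silent, and new ETn insertions are a known source of mutations in laboratory mice. Among the names here, MMETn-int, ETnERV-int, ETnERV2-int and ETnERV3-int were internal parts, and RLTRETN_Mm and the 5 ERVB7 names were LTRs.

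The table held estimated counts of reads in repeats on the mm10 assembly, and its total per library ran from 918879 to 1137257. Member copies took 4.77% ± 0.114 (SD, n = 3) of a WT library, 6.66% ± 0.191 (SD, n = 3) of a G1 library and 3.65% ± 0.160 (SD, n = 3) of a G4 library. The libraries of the 3 groups did not overlap in this share, which ran from 4.67% to 4.89% in WT, from 6.51% to 6.88% in G1 and from 3.47% to 3.78% in G4. Of all counts of the members, 98.2% lay in copies with a value that was not whole in at least 1 library, against 36.6% of the counts of the whole table. Dividing reads that match several copies gives such values. The study's methods speak of uniquely mapped reads where single elements were tested, and how the non-whole values of the table arose is not given in the sources used here, so the level of a single copy partly rests on an unknown division. Terc held no counted repeat and Tert was at 5.27 CPM or lower, so the genotypes rest on the labels. Through repeats in their exons, 8 of 18 ESC markers could be read, and their summed level ran from 8260 to 8691 CPM (counts scaled to the table total of a library after its TMM adjustment) in WT, from 12609 to 13272 in G1 and from 24095 to 28028 in G4. Tdgf1 alone went from a mean of 4343 CPM in WT to 16452 CPM in G4. Of the 7 tested with edgeR in G4 against WT, 6 rose and Lin28a was not called (-0.18, adjusted p = 0.0770). Over all genes tested, 24.2% rose and 24.1% fell. For 7 of 18 feeder fibroblast markers the sums were 99.4 to 137 CPM in WT, 128 to 164 CPM in G1 and 164 to 181 CPM in G4. Of the 5 feeder markers tested in G4 against WT with edgeR, Fn1 rose 4.45-fold (adjusted p = 1.48e-05), Col1a1 rose 1.91-fold (adjusted p = 4.47e-05), Sparc rose from a mean of 10.9 to 43.6 CPM (adjusted p = 3.43e-07), Pdgfra fell by 3.01 on the log2 scale (adjusted p = 3.82e-11), and Pdgfrb was not called (0.15, adjusted p = 0.806). The part of feeder cells or of a differing ESC state in the results below was not tested, and in bulk RNA fewer cells of a kind and less RNA per cell cannot be told apart.

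The LTR sequences printed here show how close the elements are to each other. They are given because the LTR decides under which name a locus is grouped below, and because near-identical letters are where reads can match several copies. The first 3 are windows from 250 bases before to 50 bases after the start of a RefSeq gene (GRCm38 build, the same coordinates as mm10) that begins in the LTR at the 3′ end of a member locus. Of the 300 bases of the Gm52719 window, 277 lie in the LTR and the rest, at its 3′ end, in flanking sequence, while the other windows lie wholly in theirs. The last is the 200-base exon of the GENCODE M21 long non-coding RNA Gm46332, which lies in a single LTR. Lower case runs through the letters AATAAA, those of the canonical polyadenylation signal, and capitals mark what follows them. 
Gm52719, ERVB7_1-LTR_MM, chr4:124353037-124353336, minus strand: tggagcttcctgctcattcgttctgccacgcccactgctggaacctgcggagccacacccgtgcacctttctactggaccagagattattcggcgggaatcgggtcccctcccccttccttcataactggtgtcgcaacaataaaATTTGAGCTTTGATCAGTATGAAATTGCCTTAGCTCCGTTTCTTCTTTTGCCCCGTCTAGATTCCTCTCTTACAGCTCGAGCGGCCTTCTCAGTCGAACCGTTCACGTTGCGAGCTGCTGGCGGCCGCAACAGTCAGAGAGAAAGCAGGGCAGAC
Gm34581, ERVB7_1-LTR_MM, chr12:50980463-50980762, plus strand: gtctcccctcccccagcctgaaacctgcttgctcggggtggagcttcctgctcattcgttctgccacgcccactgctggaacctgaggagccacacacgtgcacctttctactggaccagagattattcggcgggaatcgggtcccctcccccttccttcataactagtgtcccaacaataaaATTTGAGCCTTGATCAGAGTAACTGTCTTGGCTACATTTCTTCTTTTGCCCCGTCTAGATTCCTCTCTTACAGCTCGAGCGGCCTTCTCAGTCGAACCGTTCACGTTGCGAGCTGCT
Gm38894, RLTRETN_Mm, chr6:124797044-124797343, minus strand: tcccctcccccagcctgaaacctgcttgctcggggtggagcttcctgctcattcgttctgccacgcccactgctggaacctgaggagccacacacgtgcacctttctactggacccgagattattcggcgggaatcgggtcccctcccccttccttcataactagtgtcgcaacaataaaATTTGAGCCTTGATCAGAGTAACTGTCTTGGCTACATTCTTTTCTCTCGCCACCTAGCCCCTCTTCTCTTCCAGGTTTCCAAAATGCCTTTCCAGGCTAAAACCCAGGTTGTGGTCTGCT
Gm46332, RLTRETN_Mm, chr12:4552546-4552745, minus strand: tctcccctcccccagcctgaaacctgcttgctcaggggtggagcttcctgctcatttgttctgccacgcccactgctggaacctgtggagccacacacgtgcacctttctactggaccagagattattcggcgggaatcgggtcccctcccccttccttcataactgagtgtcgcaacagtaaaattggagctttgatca

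Up to the end of AATAAA, the windows of the ERVB7_1-LTR_MM element Gm52719 and the RLTRETN_Mm element Gm38894 had the same base at 97.2% of aligned positions, and those of Gm38894 and Gm34581 at 98.9%. After AATAAA, Gm52719 and Gm38894 shared 64.0%, Gm38894 and Gm34581 shared 71.5%, and the ERVB7_1-LTR_MM pair Gm52719 and Gm34581 shared 91.6%. The LTR names thus parted mainly in the letters after the signal in these examples. The exon of Gm46332 has no AATAAA and shared 96.6% to 96.7% of aligned positions with the stretches up to it. The letters AATAAA stood in 11.3% of all 32851 RefSeq windows of this length on the gene's strand and in 19.6% on either strand. The 2 ERVB7_1-LTR_MM loci behind these windows fell in G4 against WT by 1.93 (Gm52719) and 1.92 (Gm34581) on the log2 scale, the RLTRETN_Mm locus of Gm38894 fell by 0.55, and the Gm46332 copy rose by 2.28, as described further on.

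Levels were first summed over all copies of each name. Per kilobase of annotated sequence, MMETn-int was highest in WT at 38.4 CPM per kb, followed by ERVB7_1-LTR_MM at 23.2, RLTRETN_Mm at 12.7 and ETnERV-int at 10.3, while the other 6 names were at 3.91 or lower. MMETn-int alone took 81.2% of the members' counts and ETnERV-int 11.2%. In G4, RLTRETN_Mm at 18.8 CPM per kb stood above ERVB7_1-LTR_MM at 8.99, so this pair of LTRs changed places. The lowest names per kilobase in WT were ETnERV3-int at 0.666 and ETnERV2-int at 0.370. A number in the label of each copy was read as its divergence from the consensus in units of 0.1%. This reading rests on its values by repeat family, as the sources used here do not name it. Its median was 136 for ETnERV2-int copies, against 33.0 for MMETn-int.

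**Figure D1:**
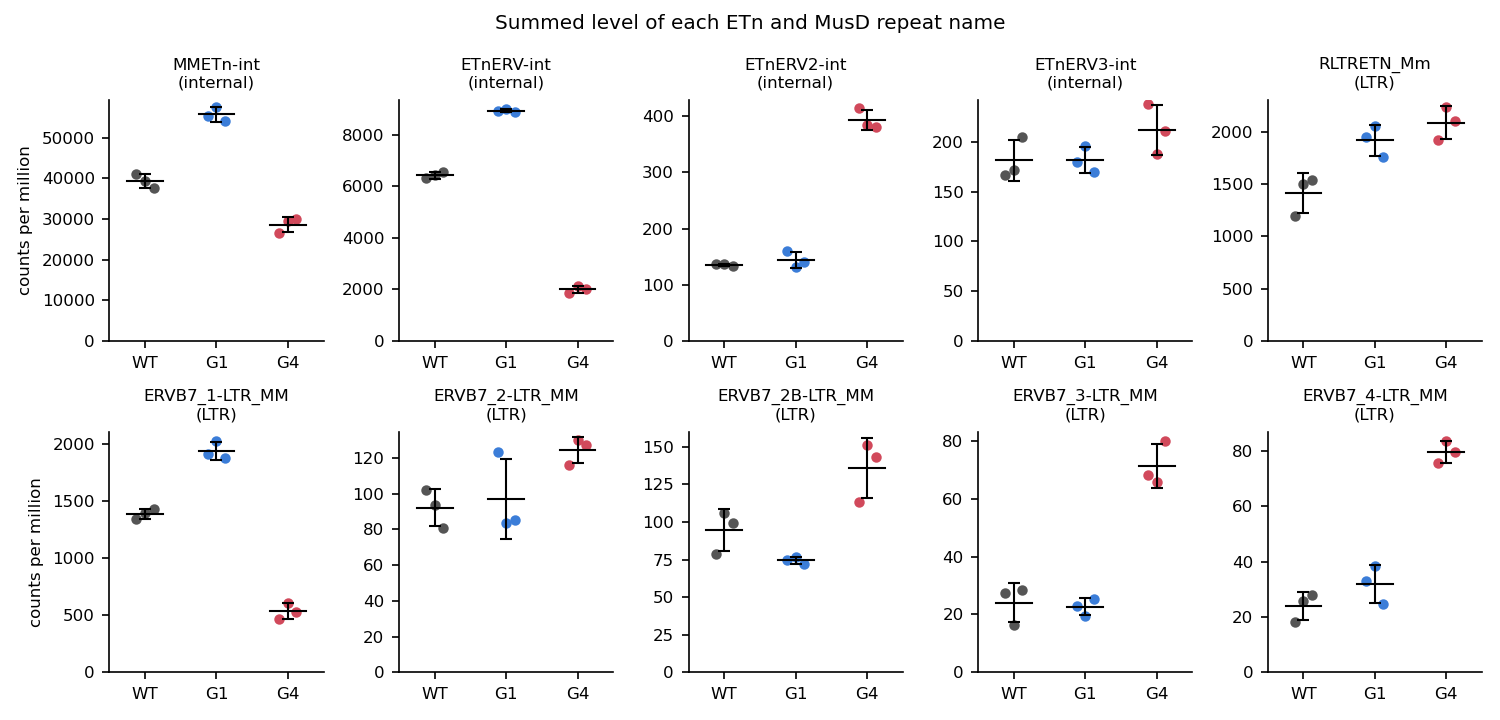
Summed level of each ETn and MusD repeat name in CPM (y axis, from 0) in the 3 libraries of WT, G1 and G4 (points), with the group mean and SD (bars). ETnERV-int and ERVB7_1-LTR_MM are highest in G1 and lowest in G4, and for ETnERV2-int, ERVB7_3-LTR_MM and ERVB7_4-LTR_MM all G4 points lie above all others.

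G4 and WT ESCs were compared first. The 2 most abundant internal parts and the LTR named ERVB7_1-LTR_MM fell, whereas RLTRETN_Mm and 5 of the 6 sparse names rose. With edgeR's quasi-likelihood test and Benjamini-Hochberg adjustment over all 853 repeat names tested, 6 of the 10 names were higher and 3 lower, against 23.1% of all names higher and 23.4% lower. ETnERV-int stood at 6299, 6415 and 6551 CPM in WT and at 1860, 2121 and 2026 CPM in G4. Its level fell by 1.68 on the log2 scale (SE 0.04, adjusted p = 1.11e-17), which is 3.20-fold. ERVB7_1-LTR_MM stood at 1342, 1397 and 1431 CPM in WT and at 473, 612 and 527 CPM in G4. It fell by 1.37 (SE 0.07, adjusted p = 1.99e-12), with every G4 library far below every WT library, as for ETnERV-int.

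MMETn-int, the internal part behind most of the signal, changed less. Its level was 41011, 39444 and 37557 CPM in WT and 26488, 29504 and 29883 CPM in G4, and it fell by 0.46 (SE 0.04, adjusted p = 6.27e-09). RLTRETN_Mm rose by 0.56 (SE 0.08, adjusted p = 5.47e-06), from 1195, 1505 and 1538 CPM in WT to 1922, 2242 and 2104 CPM in G4. The groups did not overlap for either name, but the directions were opposite. Over copies more than 5 kb from any gene the RLTRETN_Mm value turned to -0.11 (adjusted p = 0.519), so the summed rise was not seen in the copies away from genes.

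Of the 6 sparse names, 5 rose from low levels. ETnERV2-int went from 136, 137 and 134 CPM in WT to 414, 384 and 381 CPM in G4, a log2 change of 1.53 (SE 0.09, adjusted p = 3.44e-11). ERVB7_4-LTR_MM went from 23.9 ± 5.10 CPM (SD, n = 3) to 79.6 ± 3.96 CPM (SD, n = 3), a log2 change of 1.73 (SE 0.20, adjusted p = 6.39e-07). For ERVB7_3-LTR_MM the levels were 24.1 ± 6.57 and 71.3 ± 7.55 CPM (SD, n = 3 each), with a log2 change of 1.54 (SE 0.21, adjusted p = 3.92e-06). WT and G4 libraries did not overlap in any of these 3 names. ERVB7_2B-LTR_MM rose by 0.52 (SE 0.14, adjusted p = 0.00388), from 94.8 ± 14.2 to 136 ± 20.2 CPM (SD, n = 3 each). ERVB7_2-LTR_MM rose by 0.44 (SE 0.15, adjusted p = 0.0192), from 92.2 ± 10.6 to 125 ± 7.27 CPM (SD, n = 3 each), and its call was lost without WT replicate 3 (adjusted p = 0.0824), without G4 replicate 2 (0.0612) or without G4 replicate 3 (0.0539). ETnERV3-int was not called, at 181 ± 20.8 in WT against 212 ± 24.9 CPM in G4 (SD, n = 3 each), with a log2 change of 0.22 (SE 0.11, adjusted p = 0.111). It passed with library totals (0.36, adjusted p = 0.0150), without WT replicate 3 (0.34, adjusted p = 0.0319) and without G4 replicate 2 (0.30, adjusted p = 0.0478).

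G1 against WT asked about cells that lack Terc but have had less telomere shortening. Here the 4 abundant names rose together by similar amounts, and none of the 10 fell. The counts were 4 higher and 0 lower, against 5.51% of all names higher and 6.33% lower. The 4 are LTRs and internal parts, largely of the same elements, so in no comparison are they separate evidence. MMETn-int reached 55367, 57660 and 54143 CPM in G1 and rose by 0.50 (SE 0.04, adjusted p = 1.26e-08). ETnERV-int reached 8925, 8976 and 8870 CPM and rose by 0.47 (SE 0.04, adjusted p = 2.89e-08). ERVB7_1-LTR_MM reached 1920, 2033 and 1881 CPM and rose by 0.49 (SE 0.06, adjusted p = 2.39e-05). In these 3 names every G1 library was above every WT library. RLTRETN_Mm, at 1947, 2053 and 1759 CPM, rose by 0.44 (SE 0.08, adjusted p = 7.82e-04) and was also clear of WT. The other 6 names had log2 fold changes from -0.34 for ERVB7_2B-LTR_MM (SE 0.15, adjusted p = 0.195) to 0.42 for ERVB7_4-LTR_MM (SE 0.24, adjusted p = 0.326), and none was called. Over copies more than 5 kb from any gene, ETnERV-int (0.23, adjusted p = 0.0867), ERVB7_1-LTR_MM (0.24, adjusted p = 0.149) and RLTRETN_Mm (0.14, adjusted p = 0.678) lost their calls and MMETn-int kept its own.

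G4 against G1 compared cells that both lack Terc and differ in generation, and also in the blastocysts they came from. The counts were 4 higher and 3 lower, against 19.5% of all names higher and 23.0% lower. ETnERV-int fell by 2.15 (SE 0.04, adjusted p = 2.06e-19), ERVB7_1-LTR_MM by 1.85 (SE 0.07, adjusted p = 1.15e-14) and MMETn-int by 0.96 (SE 0.04, adjusted p = 3.88e-14). These are the names that were above WT in G1 and below WT in G4. ETnERV2-int (1.45), ERVB7_3-LTR_MM (1.64), ERVB7_4-LTR_MM (1.31) and ERVB7_2B-LTR_MM (0.87) rose on the log2 scale, with adjusted p from 6.82e-11 to 6.36e-05. RLTRETN_Mm was 1920 ± 149 CPM in G1 and 2089 ± 161 CPM in G4 (SD, n = 3 each), a log2 change of 0.12 (SE 0.08, adjusted p = 0.228). Scaling by library totals alone, which moved the median of all names by 0.14 in this comparison, raised it to 0.27 (adjusted p = 0.00541). RLTRETN_Mm also passed without WT replicate 1 (0.14, adjusted p = 0.0428), without G4 replicate 1 (0.19, adjusted p = 0.0397) and without the 5 leading loci described below (0.31, adjusted p = 0.00614). ERVB7_2-LTR_MM at 0.36 (adjusted p = 0.0544) lay at the threshold and passed under 7 alternatives, with its largest value of 0.57 (adjusted p = 0.00538) without G1 replicate 1. ETnERV3-int was at 0.22 (adjusted p = 0.135).

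Most counts of the abundant names sat in copies with non-whole values, namely 99.7% for MMETn-int, 98.1% for ETnERV-int and 95.9% for ERVB7_1-LTR_MM. The few counts left, in copies whose values were whole in all 9 libraries, went another way. In G4 against WT their sums turned MMETn-int to 1.49 (adjusted p = 4.34e-12) and ETnERV-int to 0.41 (adjusted p = 0.0222), and ERVB7_1-LTR_MM became -0.11 (adjusted p = 0.725). In G4 against G1 they turned MMETn-int to 1.44 (adjusted p = 1.10e-11) and raised RLTRETN_Mm to 1.23 (adjusted p = 5.11e-12). In G1 against WT no name kept its call, with MMETn-int at 0.04 (adjusted p = 0.922). Among the sparse names, ERVB7_3-LTR_MM lost its call in G4 against WT (0.10, adjusted p = 0.836) and in G4 against G1 (0.30, adjusted p = 0.509), and ERVB7_2-LTR_MM lost its own in G4 against WT (0.27, adjusted p = 0.423). The falls of the totals were therefore those of copies with non-whole values, and the part of any division of reads in them was not tested.

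The annotation cuts an element into several copies, so member copies within 1 kb of each other on the same strand were joined. This gave 1083 loci, of which 701 were a single copy and 136 had enough counts to be tested. A few loci made most of the signal: the 5 with most counts held 58.6% of the members' counts, the leading 10 held 73.4% and the leading 20 held 86.9%. All 20 spanned more than 5 kb and held 2 LTR pieces each. In G4 against WT, 57 of the 136 tested loci were higher and 36 lower, against 21.7% of all features at that level higher and 20.8% lower. In G1 against WT, 22 were higher and 2 lower, against 2.33% and 4.46%. In G4 against G1, 50 were higher and 36 lower, against 19.5% and 18.6%. The median log2 fold changes of the tested loci were 0.44, 0.32 and 0.13 in that order, beside medians of all tested copies of -0.02, 0.01 and -0.05. Each tested locus weighs alike in these counts and medians, whatever its level. Some passed the filter on low counts only through G4, such as chr16:19036037-19041266 at 0 CPM in WT and G1 and 37.3 CPM in G4. Such loci could only be called higher in G4, and their part in the counts and medians was not tested.

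Grouped by the LTR joined to them, a grouping made after the values were seen and given as a description without a test, the loci split. The 149 loci with ERVB7_1-LTR_MM summed to 23865, 21903 and 22708 CPM in WT, 31623, 33547 and 33013 CPM in G1 and 6794, 7030 and 6869 CPM in G4. The 272 loci with RLTRETN_Mm summed to 24716, 23019 and 23087 CPM in WT, 30463, 32254 and 30593 CPM in G1 and 26661, 27039 and 27977 CPM in G4. The 2 classes were thus close in WT and in G1 and far apart in G4. Of 51 tested ERVB7_1-LTR_MM loci, 10 rose, 22 fell and 19 were not called in G4 against WT, with a median log2 fold change of -0.73. Of 51 tested RLTRETN_Mm loci, 29 rose, 8 fell and 14 were not called, with a median of 1.09. In G1 against WT, 13 rose and 1 fell among the former and 8 rose and none fell among the latter.

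**Figure D2:**
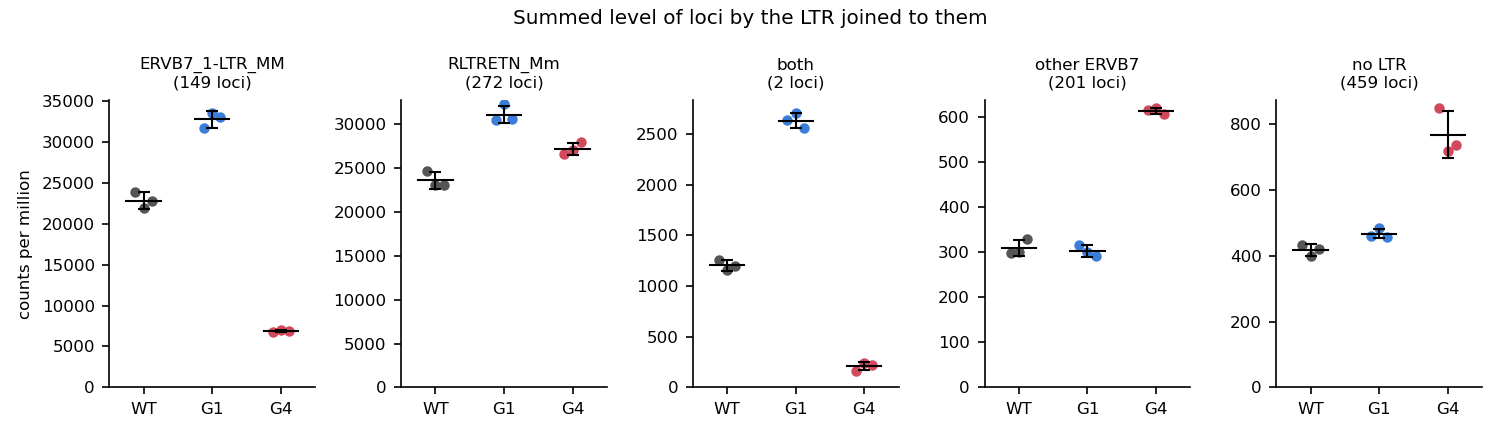
Summed level of member loci in CPM (y axis, from 0 in each panel) by the LTR joined to them, for the 3 libraries of WT, G1 and G4 (points), with the group mean and SD (bars). The ERVB7_1-LTR_MM loci lie near 22825 CPM in WT and near 6898 CPM in G4, while the RLTRETN_Mm loci are at 23607 and 27226 CPM.

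The internal part named MMETn-int was joined to both LTRs, and its summed level in G4 differed by the LTR. Of its counts, 34.7% lay in ERVB7_1-LTR_MM loci, where the level went from 15518 ± 892 CPM in WT to 22894 ± 855 CPM in G1 and to 4472 ± 41.7 CPM in G4 (SD, n = 3 each). Another 62.4% lay in RLTRETN_Mm loci, where it was 22206 ± 1132, 29259 ± 905 and 24940 ± 677 CPM (SD, n = 3 each). Single MMETn-int copies went both ways in G4 against WT. In ERVB7_1-LTR_MM loci 5 of 36 tested copies rose and 22 fell, and in RLTRETN_Mm loci 31 of 59 rose and 11 fell. Over all tested copies, 21.3% rose and 21.3% fell. ETnERV-int had 93.4% of its counts in ERVB7_1-LTR_MM loci. Without the 5 leading loci the sums for ERVB7_1-LTR_MM were 9858 CPM in WT and 4287 CPM in G4. For RLTRETN_Mm they were 6129 and 11557 CPM. The grouping came from these same libraries, so the sums are no check on it. An alternative added after seeing the data, which left those 5 loci out of the sums by name, gave -0.66 for ETnERV-int, -0.62 for ERVB7_1-LTR_MM and -0.19 for MMETn-int in G4 against WT, all still called lower, so the size of these falls rested largely on those loci. The 459 loci without an LTR, which hold 289 ETnERV2-int, 111 ETnERV3-int, 119 ETnERV-int and 118 MMETn-int copies, summed to 418 ± 17.6 CPM in WT, 467 ± 14.1 CPM in G1 and 768 ± 71.6 CPM in G4 (SD, n = 3 each). The 201 loci with other ERVB7 LTRs summed to 309 ± 17.0, 303 ± 13.0 and 614 ± 6.83 CPM (SD, n = 3 each).

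**Figure D3:**
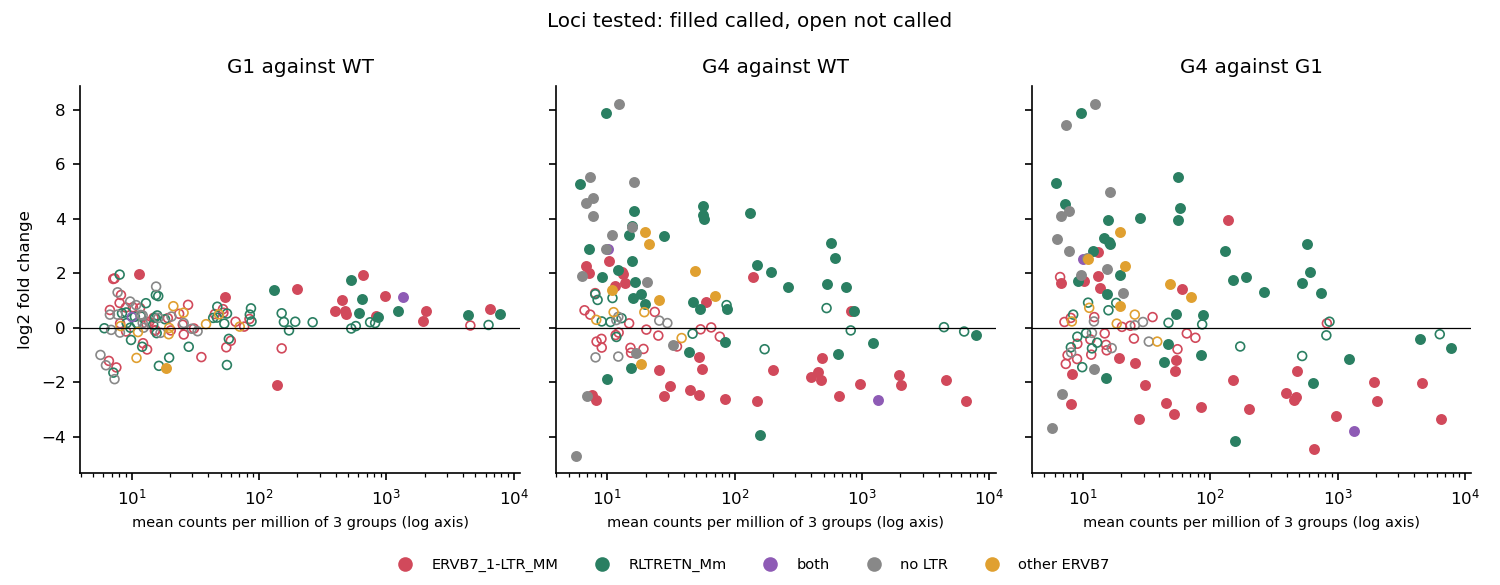
Log2 fold change (y axis) against mean level in CPM (x axis, log scale) for the 136 tested loci in the 3 comparisons, coloured by LTR, with filled points for an adjusted p under 0.05. In G4 against WT the abundant ERVB7_1-LTR_MM loci lie below 0 with 1 exception among the leading 20, RLTRETN_Mm loci lie on both sides, and fitted values of loci with a group at 0 counts depend on the prior count.

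Of the 20 leading loci, 7 carried ERVB7_1-LTR_MM, 12 RLTRETN_Mm and 1 an LTR of each name. In G4 against WT, 6 of the 7 fell and 1 rose, while of the 12, 5 rose, 3 fell and 4 were not called. The largest ERVB7_1-LTR_MM locus, chr16:25517734-25523269, far from any gene, stood at 7221, 6794 and 7174 CPM in WT, 11063, 11531 and 11386 CPM in G1 and 1057, 1054 and 1136 CPM in G4. It rose by 0.68 in G1 against WT (SE 0.05, adjusted p = 1.35e-09) and fell by 2.69 in G4 against WT (SE 0.06, adjusted p = 2.59e-23), which is 6.45-fold. This 1 element held 12.8% of the members' counts, and 1 of its pieces held 31.8% of the ETnERV-int counts.

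The other large ERVB7_1-LTR_MM loci fell by similar amounts in G4. The locus chr4:124353060-124358613, that of Gm52719 above, was at 6354, 5741 and 5618 CPM in WT against 1541, 1512 and 1531 CPM in G4, a fall of 1.93 (SE 0.06, adjusted p = 1.45e-19), and it was not called in G1 (log2 fold change 0.08, adjusted p = 0.496). In an intron of Sntb1, which encodes a syntrophin of the cell membrane, chr15:55871469-55877005 fell by 2.10 (SE 0.11, adjusted p = 1.08e-14), from 2223 ± 229 to 510 ± 65.3 CPM (SD, n = 3 each). At Wiz, whose protein works with the H3K9 methyltransferases G9a and GLP, and the overlapping Gm26858, chr17:32369422-32376516 fell by 1.74 (SE 0.07, adjusted p = 5.66e-17), from 2349 ± 121 to 696 ± 4.24 CPM (SD, n = 3 each). The 3 loci differed in G1, where the Sntb1 locus rose by 0.60 (adjusted p = 3.28e-04) and the Wiz locus by 0.24 (adjusted p = 0.0352). The widest swing was at chr5:88162459-88168001, which went from 352, 546 and 292 CPM in WT up to 1563, 1413 and 1515 CPM in G1 and down to 50.9, 61.5 and 90.3 CPM in G4. It rose by 1.92 in G1 (SE 0.15, adjusted p = 1.21e-09) and fell by 2.52 in G4 against WT (SE 0.18, adjusted p = 6.59e-12), with no overlap between any of the groups. The locus with an LTR of each name, chr5:89203777-89209330 in an intron of Slc4a4, a bicarbonate cotransporter gene, rose by 1.13 in G1 (SE 0.09, adjusted p = 2.58e-09) and fell by 2.67 in G4 against WT (SE 0.10, adjusted p = 1.39e-17), at 1202 ± 51.5, 2626 ± 73.1 and 186 ± 39.8 CPM (SD, n = 3 each) in WT, G1 and G4. The exception among the leading 20 was chr9:7798967-7805186 near Tmem123, which rose by 0.61 in G4 against WT (SE 0.08, adjusted p = 1.41e-06), from 638 ± 53.5 to 963 ± 39.2 CPM (SD, n = 3 each). Of 25 tested ERVB7_1-LTR_MM loci of 5 kb or more with 2 or more LTR pieces, 6 rose and 14 fell. Over all features at that level, 21.7% rose and 20.8% fell. The rises included loci of 7477 to 7484 bp with ETnERV-int, at chr16:91248341-91255818 (1.85), chr4:19149446-19156929 (2.03) and chr8:128746455-128753931 (0.95). Similar loci at chr14:73187261-73194739 (0.01) and chr2:144148981-144156457 (-0.69) were not called. ETn and MusD loci were not told apart.

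**Figure D4:**
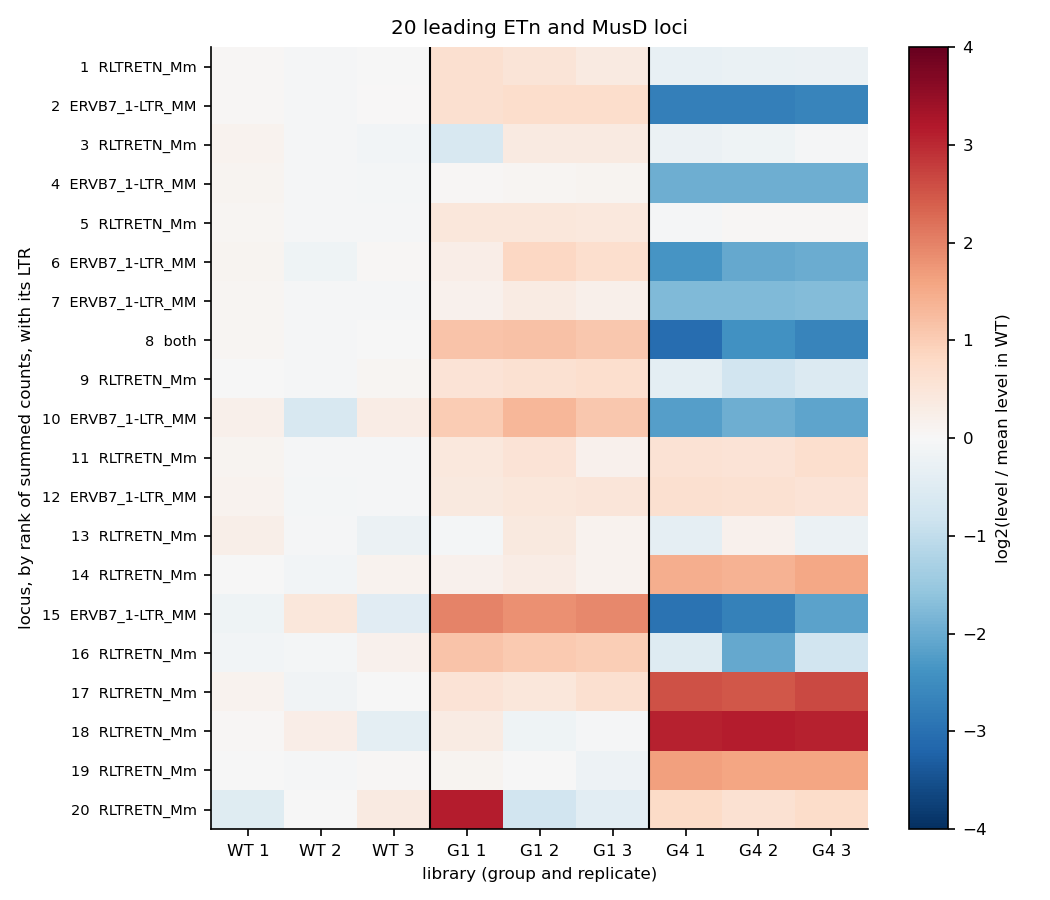
Log2 of the level in each of the 9 libraries over the mean WT level (colour) for the 20 loci with most counts (y axis, in order of counts, with the LTR name). Blue G4 cells mark falls at ERVB7_1-LTR_MM loci, red G4 cells mark rises at 5 RLTRETN_Mm loci of lower rank, and G1 replicate 1 stands apart at loci 3 and 20.

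RLTRETN_Mm loci went both ways in G4 against WT. The locus with the most counts of all, chr4:137381484-137386989, fell by 0.25 in G4 against WT (SE 0.06, adjusted p = 0.00131), from 7385, 7007 and 7132 to 5832, 5991 and 6127 CPM, and rose by 0.51 in G1 (SE 0.06, adjusted p = 8.19e-07). In an intron of Mtmr7, a phosphoinositide phosphatase gene, chr8:40566697-40572200 was at 3916 ± 188 in WT against 3936 ± 157 CPM in G4 (SD, n = 3 each), with a log2 fold change of 0.02 (adjusted p = 0.781). The locus chr1:134400076-134405591 near Cyb5r1 fell by 0.96 (SE 0.19, adjusted p = 1.74e-04), from 539 ± 61.4 to 275 ± 130 CPM (SD, n = 3 each). In an intron of Mcc, chr18:44735278-44740560 fell by 3.95 (SE 0.19, adjusted p = 7.32e-16), from 196, 237 and 204 to 10.4, 17.1 and 12.9 CPM. Several RLTRETN_Mm loci of lower rank were far higher in G4. The locus chr6:127514029-127520969 went from 170, 197 and 124 CPM in WT to 1388, 1427 and 1363 CPM in G4, a rise of 3.11 (SE 0.13, adjusted p = 4.88e-17), and was level with WT in G1 at 206, 144 and 159 CPM. In an intron of Nmnat2, which encodes an enzyme of NAD synthesis, chr1:153077932-153083379 rose by 2.57 (SE 0.10, adjusted p = 6.46e-18), from 219 ± 20.1 to 1291 ± 70.7 CPM (SD, n = 3 each). The loci chr12:27418438-27423915 (1.61) and chr17:14094392-14099888 (1.48) also rose in G4 against WT, each with no overlap between the groups.

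At 2 RLTRETN_Mm loci G1 replicate 1 stood far from the other G1 libraries, in opposite directions. At chr6:115824286-115829791 it was at 4087 CPM beside 8256 and 8244 CPM, and the locus was called in none of the comparisons. At chr1:7476590-7482097 it was at 2320 CPM beside 154 and 196 CPM, while WT ran from 189 to 341 CPM. The call there in G1 against WT (log2 fold change 1.76, adjusted p = 0.0425) thus rests on 1 library, as the other G1 libraries were below or within the WT range.

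The parts of an element moved together. Among loci with 2 or more called copies, the calls had 1 direction at 24 of 27 loci in G4 against WT, at 9 of 10 in G1 against WT and at 28 of 29 in G4 against G1. At chr16:25517734-25523269 the 6 tested copies, 2 LTRs and 4 internal pieces, fell by between 2.54 and 2.84. An exception was the leading chr4:137381484-137386989, whose main MMETn-int piece fell by 0.27 (SE 0.06, adjusted p = 6.21e-04) while its 3′ RLTRETN_Mm LTR rose by 0.62 (SE 0.24, adjusted p = 0.0431), from 45.7 to 70.5 CPM. At chr4:124353060-124358613 the 3′ LTR, whose sequence is printed above as Gm52719, was not called (-0.69, SE 0.43, adjusted p = 0.201), while the 4 other tested copies fell by between 1.73 and 1.98. Copies of 1 locus share their transcripts, so they are not separate evidence.

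**Figure D5:**
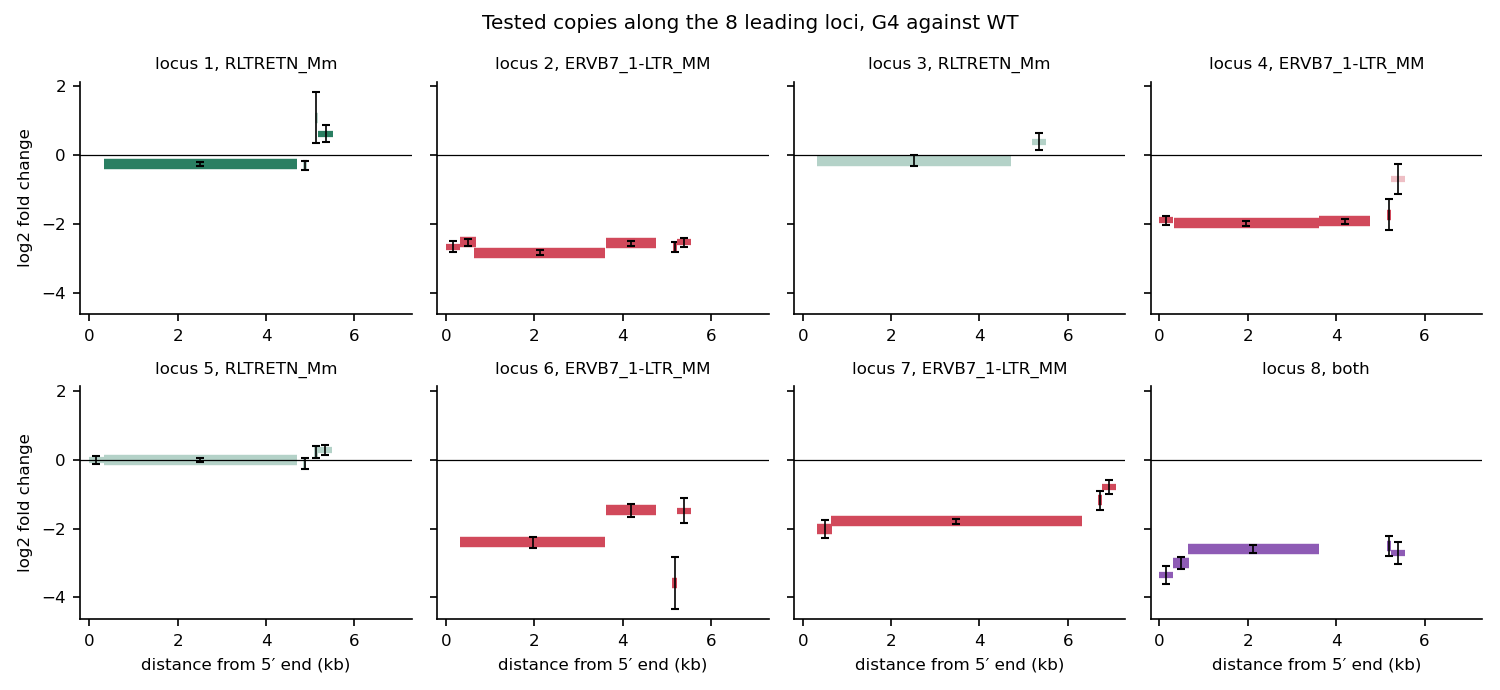
Log2 fold change of G4 against WT (y axis) of each tested copy along the 8 leading loci, placed by distance from the 5′ end of the locus (x axis, kb), with the SE as error bars and pale colour for copies not called. Within the ERVB7_1-LTR_MM loci shown every tested copy lies below 0, and those of the RLTRETN_Mm loci lie between -0.30 and 1.09.

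Single copies were tested over the whole table, where 219 members passed the filter on low counts and 1654 did not. Of the 1873, 1085 had fewer than 5 counts over all 9 libraries, and the 219 held 97.4% of the members' counts. In G4 against WT, 80 were higher, 70 lower and 69 not called, against 21.3% of all 13278 tested copies higher and 21.3% lower. In G1 against WT the counts were 44 higher and 4 lower, against 2.41% and 4.36%, and in G4 against G1 68 higher and 82 lower, against 19.0% and 19.2%. By name, 40 of 104 MMETn-int copies rose and 35 fell in G4 against WT, 6 of 33 ETnERV-int copies rose and 17 fell, and 3 of 28 ERVB7_1-LTR_MM copies rose and 14 fell. For RLTRETN_Mm 16 of 30 rose and 2 fell, and for ETnERV2-int 8 of 11 rose and none fell. Only 11 of 297 ETnERV2-int copies were tested, and some of these had 0 or few counts in WT and passed the filter only through G4. Such copies could hardly be called lower, so the filter partly sets this tally.

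Of the 10 copies named for the largest rises, 4 had no counts in WT. The ETnERV2-int pieces chr16:19039503-19040990 and chr16:19036037-19039332, both far from genes and 1 locus, had 0 counts in all WT and G1 libraries. In G4 they had 28.8, 17.7 and 18.7 CPM and 17.8, 15.1 and 13.0 CPM, which is at least 21.0-fold and at least 14.9-fold higher than a floor of 3 counts over the WT group. ETnERV2-int at chrX:78947080-78947735 (33.7, 16.6 and 12.9 CPM in G4) and MMETn-int at chr14:14452904-14456123 near Gm8483 (at least 12.8-fold) were likewise at 0 in WT and G1. All 4 were called higher in edgeR's test with adjusted p from 3.90e-06 to 8.41e-05. They passed the filter on low counts only through G4, so a call could only be higher and adds no support. As 0 counts allow a low level in WT, these copies were not detectable there rather than absent.

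A group of intronic copies rose from a few counts. In an intron of Ugt3a2, a UDP-glycosyltransferase gene, the antisense RLTRETN_Mm copy chr15:9354632-9354954 had 1.64 counts over the WT group and 83.2 over G4, a ratio of 48.2 with a 95% counting interval from 10.6 to 331. The neighbouring RLTRETN_Mm copy chr15:9356947-9357269 rose by 4.51 (SE 0.46, adjusted p = 2.91e-08), from 5.03, 2.09 and 0.480 to 52.1, 68.3 and 49.7 CPM, and was at 0 in G1, which makes G4 at least 56.9-fold higher than G1. ETnERV2-int at chr18:21063620-21067296, in sense within an intron of the meprin gene Mep1b, rose by 5.34 (SE 0.57, adjusted p = 3.45e-08), from 1.04, 2.09 and 0.480 to 48.5, 45.5 and 43.7 CPM. RLTRETN_Mm at chr16:81747560-81747880 had 1.97 WT and 73.0 G4 counts, a ratio of 35.2 (95% interval 9.25 to 292). Among the copies with the largest rises 1 was abundant in G4. The MMETn-int copy chr6:127514350-127520169 rose by 4.79 (SE 0.13, adjusted p = 1.20e-19), from 62.9, 38.5 and 40.1 to 1312, 1309 and 1288 CPM. MMETn-int at chr6:129059956-129064325 near Klrb1f, a gene of the natural killer receptor cluster, rose by 4.29 (SE 0.51, adjusted p = 1.98e-07), from 1.88 ± 1.33 to 35.7 ± 9.99 CPM (SD, n = 3 each).

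The largest falls in G4 against WT were of internal pieces and of ERVB7_1-LTR_MM. ETnERV-int at chr1:44821576-44822721 went from 9.99, 26.9 and 29.0 CPM in WT to 0 in all G4 libraries, at least 23.0-fold lower. In an intron of Mcc, antisense to that gene, 3 MMETn-int pieces of 1 RLTRETN_Mm locus on chromosome 18 fell. The piece chr18:44735600-44737143 fell by 5.52 (SE 0.39, adjusted p = 1.36e-11), from 64.1, 70.6 and 58.5 to 2.37, 0 and 2.20 CPM. The piece chr18:44737380-44739784 fell by 3.59 (SE 0.22, adjusted p = 5.36e-13), from 113 ± 9.06 to 9.19 ± 2.86 CPM (SD, n = 3 each), and the short piece between them went from 39.9 to 1.00 counts, a ratio of 42.0 (95% interval 7.14 to 1705). The Mcc pieces were not called in G1, where the longer one was at 140 ± 3.78 CPM (SD, n = 3, adjusted p = 0.248).

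Other falls were of copies with few counts in G4. MMETn-int at chr6:88567944-88568953, in an intron of Kbtbd12, was at 14.1, 173 and 80.3 CPM in WT and 3.18, 3.70 and 0 CPM in G4, a fall of 5.23 (SE 1.03, adjusted p = 1.84e-04). MMETn-int at chrX:38713277-38717650, in an intron of Gm14565, had 32.9 WT and 1.14 G4 counts, a ratio of 30.4 (95% interval 5.82 to 1414). The ERVB7_1-LTR_MM copies chr15:8822641-8822958 (a fall of 3.96, adjusted p = 9.26e-06) and chr14:112371352-112371668 (46.6 WT and 2.62 G4 counts, a ratio of 18.7 with a 95% interval from 6.48 to 210) were at 0 in 2 of 3 G4 libraries. The second of these lost its call with DESeq2's Wald test (adjusted p = 0.0668). ETnERV-int at chr8:78140332-78140407 fell by 3.82 (SE 0.80, adjusted p = 3.68e-04) and the 96-base MMETn-int piece of the Sntb1 locus by 3.57 (SE 0.75, adjusted p = 4.07e-04).

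Of the 4 copies named for rises in G1 against WT, 2 lay in the chr5:88162459-88168001 locus. MMETn-int at chr5:88164400-88167684 rose by 2.70 (SE 0.31, adjusted p = 1.13e-06), from 44.6, 229 and 61.2 to 879, 571 and 718 CPM, and the LTR of the same locus, chr5:88162459-88162775, by 1.98 (SE 0.37, adjusted p = 8.02e-04). MMETn-int at chr13:113723303-113723378 rose by 2.40 (SE 0.38, adjusted p = 1.42e-04), from 3.86, 6.92 and 4.79 to 32.2, 26.7 and 28.6 CPM. In G4 against G1 the same chr5 piece fell by 5.91 (SE 0.42, adjusted p = 2.59e-11), to 9.89, 6.12 and 18.9 CPM. MMETn-int at chrY:58545267-58551244 rose by 2.05 in G1 (SE 0.55, adjusted p = 0.0202), from 4.02 ± 3.92 to 16.9 ± 5.59 CPM (SD, n = 3 each). Only 2 falls met the same rule. ETnERV-int at chr16:91248660-91255042 fell by 2.14 in G1 (SE 0.30, adjusted p = 2.38e-05), from 120, 54.7 and 73.4 to 8.42, 31.1 and 14.7 CPM, and rose by 1.87 in G4 against WT (SE 0.21, adjusted p = 5.87e-08), to 271, 309 and 320 CPM. It thus ran opposite to the ETnERV-int total in both comparisons. ERVB7_2B-LTR_MM at chr10:22144183-22144533, in an exon of E030030I06Rik, fell by 1.47 in G1 (SE 0.34, adjusted p = 0.00651) and by 1.34 in G4 (SE 0.33, adjusted p = 0.00189), from 31.7 ± 11.1 to 11.4 ± 1.94 and 12.3 ± 3.27 CPM (SD, n = 3 each).

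Of the copies with the most counts of the 4 sparse LTR names, 2 lay in an exon of a gene. For ERVB7_3-LTR_MM it was chr11:22600216-22600622, in an exon of Gm26829, which held 49.8% of the counts of its name and rose by 3.48 in G4 against WT (SE 0.38, adjusted p = 4.03e-08), from 2.60, 4.18 and 6.72 to 49.3, 43.8 and 57.5 CPM. For ERVB7_4-LTR_MM it was chr11:121904237-121904634, with 83.9% of the counts of its name, which rose by 2.08 (SE 0.22, adjusted p = 2.37e-08), from 14.6, 20.9 and 18.2 to 74.8, 77.6 and 75.2 CPM. The rise of each of these 2 names in CPM was mainly that of 1 copy. For ERVB7_2-LTR_MM it was chr1:134433102-134433465, in an exon of the adiponectin receptor gene Adipor1, which was not called (log2 fold change -0.40, SE 0.22, adjusted p = 0.160). ERVB7_2B-LTR_MM at chr13:86054061-86054391 rose by 1.00 (SE 0.27, adjusted p = 0.00446). ETnERV3-int at chr5:123539693-123545534, in an intron of the vesicle trafficking gene Vps33a, fell by 0.67 (SE 0.25, adjusted p = 0.0328), from 41.6, 29.2 and 45.7 to 19.8, 28.3 and 25.6 CPM. That call was lost in 7 alternatives, among them without WT replicate 1 (adjusted p = 0.0752), WT replicate 3 (0.114), G4 replicate 1 (0.120) or G4 replicate 3 (0.0727). RLTRETN_Mm had its most abundant copy at the 5′ end of the Mtmr7 locus, chr8:40566697-40567018, at 186 ± 20.4 in WT against 187 ± 4.09 CPM in G4 (SD, n = 3 each).

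The exonic RLTRETN_Mm copy of Gm46332 was chosen after its values were seen, because its counts were whole in all 9 libraries. The copy chr12:4552448-4552750 stood at 40.6, 64.8 and 79.7 CPM in WT, 98.1, 85.9 and 83.6 CPM in G1 and 282, 328 and 293 CPM in G4. It rose by 2.28 in G4 against WT (SE 0.16, adjusted p = 1.29e-11) and was not called in G1 against WT (log2 fold change 0.52, adjusted p = 0.0818). Of the 18 tested copies with whole values, 10 rose, 3 fell and 5 were not called in G4 against WT, and none rose in G1 against WT. Over all tested copies of any value, 21.3% rose and 21.3% fell in G4 against WT, and 2.41% rose in G1 against WT. The share over all tested copies with whole values was not computed, so these counts have no like baseline.

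Position and the number read as divergence were described over the tested copies. The median of that number (in units of 0.1%, if the reading holds) was 32.5 among the 80 that rose in G4 against WT and 32.0 among the 70 that fell. It was 24.0 among the 69 not called, whereas the 1654 untested copies stood at 70.0. Copies in introns numbered 75, of which 24 rose and 30 fell, and of 99 more than 5 kb from any gene 38 rose and 30 fell. Of 15 exonic copies 7 rose and 4 fell. Of all other tested copies, 19.3% rose and 17.2% fell in introns, 23.7% and 30.4% more than 5 kb from genes, and 20.5% and 21.8% in exons. Where a copy lay within a single gene, 10 rose and 4 fell of 19 in sense, and 14 rose and 24 fell of 53 in antisense, which is also the orientation of the Sntb1, Mtmr7 and Mcc copies above. Of all other tested copies 21.2% rose in sense and 19.0% in antisense, and 21.0% and 19.6% fell. Strand was not stated for the library kit, so sense and antisense reads cannot be told apart. Within 20 Mb of a chromosome end, 31 of 70 tested copies rose and 11 fell, and elsewhere 49 of 149 rose and 59 fell. For all other tested copies the shares were 21.5% and 18.4% near an end and 20.8% and 22.3% elsewhere, and no difference between positions was tested. On chromosome 5, 2 of 11 rose and 8 fell, against 20.8% and 20.4% of the other tested copies there, all counts of G4 against WT.

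Repeats of other names next to the members were counted by their call. Of the 80 copies that rose in G4 against WT, 52 had a tested repeat of another name within 5 kb, and at 47 of these a neighbour had risen too. Among the 70 that fell, 54 had such a neighbour and at 43 a neighbour had fallen. Over all other tested copies with a neighbour of another name, the shares were 84.4% for those that rose and 86.4% for those that fell. The members stood at 90.4% and 79.6%. The rules differed, as neighbours of a member left out every member name, while those of another copy left out only its own name. Parts of the same element under different names could thus count as neighbours among the other copies. The shares are therefore not a like baseline, and the difference was not tested. Of 47 uncalled copies with a tested neighbour, 16 had one called in either direction. This was 34.0%, against 39.6% of all other uncalled copies, with the same difference in rules. Read-through from or into a host transcript gives reads to several repeats at once, and its part in these values was not tested.

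Genes of H3K9 and DNA methylation pathways, listed for the silencing of retrotransposons and with the demethylation genes Tet1 and Tet2 among them, could be read through repeats in their exons. Of 36 listed, 30 had such repeats and 18 were tested, and in G4 against WT 6 rose, 4 fell and 8 were not called (Tet1 and Tet2 are 2 of the 6), against 24.2% of all 4507 genes tested higher and 24.1% lower. In G1 against WT 3 rose and 3 fell, against 4.37% and 6.50%, and in G4 against G1 5 rose and 4 fell, against 20.6% and 22.7%. The largest change was in Suv39h1, an H3K9 methyltransferase of constitutive heterochromatin, which fell by 2.23 in G4 against WT (SE 0.12, adjusted p = 7.27e-23), from 331, 386 and 439 to 86.0, 86.0 and 75.2 CPM, and by 0.49 in G1 (SE 0.11, adjusted p = 6.94e-04). Cbx3, which encodes the heterochromatin protein HP1 gamma, fell by 2.17 (SE 0.58, adjusted p = 0.00158), from 13.0 ± 2.75 to 2.75 ± 2.27 CPM (SD, n = 3 each). Pphln1, which encodes the HUSH complex subunit periphilin, fell by 0.96 in G4 (SE 0.10, adjusted p = 3.02e-12) and by 0.45 in G1 (adjusted p = 5.52e-04). The 3 are all parts of H3K9 methylation pathways, but others of the same pathways rose. Trim28, the corepressor that KRAB zinc finger proteins bring to LTRs, rose by 0.92 in G4 against WT (SE 0.30, adjusted p = 0.00895), from 19.8 ± 6.40 to 37.9 ± 6.76 CPM (SD, n = 3 each). Fam208a, which encodes the HUSH subunit TASOR, rose by 0.78 (SE 0.34, adjusted p = 0.0496), and the DNA demethylation genes Tet1 and Tet2 rose by 0.89 (SE 0.11, adjusted p = 9.55e-10) and 0.86 (SE 0.24, adjusted p = 0.00258). Atf7ip, which encodes a partner of the methyltransferase SETDB1, rose by 0.85 in G4 against G1 (SE 0.35, adjusted p = 0.0442) and was not called in G4 against WT. Setdb1 itself, named outside the rule, was not called in G4 against WT, at 131 ± 5.46 and 154 ± 12.7 CPM (SD, n = 3 each, adjusted p = 0.144 by edgeR), and rose by 0.34 in G4 against G1 (SE 0.14, adjusted p = 0.0397).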

How the data were processed

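RNA of 9 mouse ESC libraries (3 groups of 3, from the labels) was analysed. The submitters' processing notes name mm10, STAR 2.5.3a, FastQC 0.11.9 and featureCounts. The authors deposited 1 raw estimated count per repeat copy and library, and how non-whole values arose is not given in the sources used here (the study's methods name uniquely mapped reads for single elements). A second deposited table holds the same copies after division by 1 size factor per library and was not used. Columns named Control were taken as WT. The study's methods speak of fewer replicates than the labels list, and the labels were followed.

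Rounded counts passed filterByExpr, were given TMM factors from the whole table, and entered a quasi-likelihood model of group over all 9 libraries (edgeR 4.0.16, R 4.3.3) for single copies, repeat names, joined loci and genes (copies with at least 0.5 of their length in exons of 1 gene). Tests were two-sided and adjusted by Benjamini-Hochberg over all features of a level, with calls at an adjusted p under 0.05. Each SE was taken as the absolute log2 fold change divided by the root of its F statistic. Genes and contexts are from GENCODE M21. Totals of 918879 to 1137257 counts put 3 counts at 2.66 to 3.30 CPM, and intervals and floors cover counting error only.

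The members and lists were chosen with earlier results of these data known. All 10 names are given. Single copies were named by size of change, up to 10 each way in G4 against WT and up to 4 each way in the other comparisons, among called copies with no overlap of the groups and 10 or more counts on average in the higher group, plus the copy with most counts of each name, and at most 8 called silencing genes. Loci and the grouping by LTR were named after their values were seen. The alternatives were DESeq2 1.42.0 size factors and Wald test, library totals, a looser filter, the replicate number as a block, pairwise fits of 2 groups, each library left out, the study's rule (fold over 1.5, unadjusted p under 0.05), joined loci, copies over 5 kb from genes, copies with whole values, and omission of chromosomes 6, X and Y or, added after seeing the data, of the 5 leading loci. The study gave that rule for retrotransposons aligned to consensus sequences and used a higher fold for single loci. The fit was tried on simulated whole counts with the same spread for every feature. No reads were divided among copies there, so that trial does not cover the non-whole values.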

Additional observations from a re-analysis of the deposited data

Results flagged for a closer look

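The repeat names ERVB7_1-LTR_MM, ETnERV-int and MMETn-int were above WT in G1 and below WT in G4, with every library of a Terc-/- group on its own side of the WT libraries, and the test of G4 against G1 covers the difference itself. The log2 fold change of G4 against G1 was -1.85 for ERVB7_1-LTR_MM, -2.15 for ETnERV-int and -0.96 for MMETn-int. G1 and G4 were each compared with the same WT libraries. With 3 libraries a group, no search for a library that stands apart within a group was made by a fixed criterion.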

How the results depend on the processing

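Of 255 alternative counts for 13 results, 227 stayed within 1.5 times the value reported, and of 1116 alternative values for 65 named items 1055 kept direction and call. Where not stated otherwise, the cause of a change was not tested. Under the study's rule for consensus sequences, names numbered 3 higher in G4 against WT and 0 higher in G1 against WT. Put on single copies, for which the study used a higher fold, the same rule gave 8 lower in G1 against WT. Library totals moved the median of all names by 0.13 in G4 against WT and 0.14 in G4 against G1, kept the direction of every called name, and gave 7 names higher in G4 against G1. Copies over 5 kb from genes, fewer by construction, gave 3 names higher in G4 against WT and 1 in G1 against WT, 38 copies higher and 30 lower in G4 against WT, 23 higher in G1 against WT, and 31 higher and 36 lower in G4 against G1. Copies with whole values, also fewer, gave 0 names lower in G4 against WT, 0 higher in G1 against WT and 0 lower in G4 against G1, with 10 copies higher and 3 lower, 0 higher and 1 lower, and 10 higher and 1 lower in the same order. Joined loci gave 36 lower in G4 against WT, 22 higher and 2 lower in G1 against WT, and 36 lower in G4 against G1. The 4 copies lower in G1 against WT became 2 with DESeq2's Wald test, 8 with the looser filter, and from 2 (without WT replicate 2) to 7 (without G1 replicate 3) with a library left out. Directions reversed with whole values for ETnERV-int (0.41) and MMETn-int (1.49) in G4 against WT, ERVB7_1-LTR_MM (-0.08) in G1 against WT, and ETnERV-int (0.14) and MMETn-int (1.44) in G4 against G1, and over 5 kb from genes for RLTRETN_Mm (-0.11) in G4 against WT. Among named copies, the call of MMETn-int at chrY:58545267-58551244 in G4 against WT was lost in most alternatives. Replicate numbers did not pair the libraries (same-number correlations from -0.0150 to 0.0210). The replicate block gave 6 names higher and 3 lower, 78 copies higher and 67 lower in G4 against WT, 4 names higher and 0 lower, 42 copies higher and 3 lower in G1 against WT, and 4 names higher and 3 lower, 67 copies higher and 81 lower in G4 against G1. Called silencing genes in G4 against WT numbered 10, from 8 to 12 over alternatives and 9 with the block. Depth limits copies under about 10 counts, which were mostly not tested.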
